A study of Mus musculus with 14 samples.

Results

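Messenger RNA of 26 genes of cholesterol biosynthesis and of its transcriptional control was followed in mouse liver during ConA-induced hepatitis. ConA (concanavalin A) is a plant lectin that activates T cells and, given intravenously, causes an acute immune-mediated hepatitis. The genes were taken by symbol from a list of enzymes, a sterol carrier and the SREBP regulators, and all 26 were found among the 17656 genes of the deposited tables. The list does not cover the whole pathway. RNA was sequenced from 14 livers, 1 per mouse, and the values are TPM, a gene's share of all transcripts after division by its length, scaled to 1000000. The C57BL/6 mice were 8 weeks old and received saline or ConA at 8 mg/kg through the tail vein, and the liver was taken 8 h later. Each treatment was given to WT mice and to mice labelled Ythdf1 knockout, here called KO. These are whole-body knockouts of an m6A reader protein made with CRISPR/Cas9, so that every cell type of the liver carries the change. Saline was given to 3 WT and 3 KO mice and ConA to 4 of each. The comparisons ask how the sterol genes of the liver responded to ConA, and whether mice of the 2 genotypes differed.

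Cholesterol is made from acetyl-CoA through mevalonate, prenyl diphosphates, squalene and lanosterol, and the liver is a main site of this synthesis. When membranes of the endoplasmic reticulum run low in sterol, SCAP escorts the SREBP precursors to the Golgi, where proteases release the active transcription factors. INSIG proteins hold SCAP back when sterol is plentiful. SREBP-2, from Srebf2, mainly drives sterol genes, and SREBP-1c, from Srebf1, mainly drives fatty acid genes. Messenger RNA levels do not show how much SREBP was processed, and no protein was measured here.

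The tables hold no read numbers, so the depth of the libraries is unknown and the spread between mice is the only error given. Between 2230 and 2701 genes were listed at 0 in a library. WT saline mice 2 and 3 were more alike than any other pair of a group, with a median absolute difference of 0.0636 on the log2 scale over genes at TPM of 5 or more, against 0.111 to 0.385 in the other 17 pairs. Where it matters, values are repeated with the 2 libraries merged into their mean as 1 mouse. Mouse 3 of each ConA group lay farthest from the rest of its group. Ythdf1 itself was at 12.03, 13.9 and 13.3 TPM in WT and at 20.8, 18.4 and 18.6 TPM in KO mice after saline (limma, higher by 0.53 on the log2 scale, adjusted p = 0.0181), and ConA mice had 18.7 to 25.6 TPM (WT) and 15.5 to 26.2 TPM (KO). The level of the targeted gene was thus not lower in the libraries labelled knockout. A value for the whole gene also counts reads from outside the edited part, so it does not check the label, and KO stands for that label in each comparison that follows. The hepatocyte markers summed to between 77889 and 126798 TPM in every library, and the 8 listed T cell markers summed to at most 6.54 TPM.

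RefSeq promoter windows were given for 22 of the 26 genes, as 250 bases before and 50 bases after a transcript start (GRCm38.p6). Sqle, Fdft1, Fdps and Stard4 had no entry. The letters TCACNCCAC, a sterol regulatory element, were searched on both strands and were found in 1 of the 22 genes (4.55%), Hmgcs1, against 1.44% of 27025 genes. These are all genes with a window, whether or not the liver expressed them. Letters read by factors that work beside SREBP were more frequent. CCAAT (NF-Y) lay in the windows of 20 of the 22 genes (90.9%), against 41.1% of all genes, and GGGCGG (Sp1) in 20 (90.9%), against 38.2%. The E-box CACGTG was present in 5 (22.7%), against 8.09%, and matches of different motifs did not overlap in any of the 30 windows. A gene with several windows has more chances of a match. Of the 30 windows of the members, 21 held CCAAT and 24 GGGCGG, against 37.4% and 35.7% of all windows. CACGTG lay in 6 and TCACNCCAC in 1 of them, against 7.15% and 1.24%. A match is a run of letters, not a shown binding site. Printed below are the 250 bases before the start of Hmgcs1, the gene with the sterol regulatory element (chr13:119690101-119690350, plus strand), and, chosen after their values were seen, of Insig1, the feedback regulator that fell after ConA in both genotypes (chr5:28071162-28071411, plus strand), of Srebf2, the regulator not called in any of the 5 comparisons (chr15:82147019-82147268, plus strand), and of Sc5d, the enzyme with the largest fall (chr9:42264301-42264550, minus strand). Capitals mark matches of any of the 4 motifs, on either strand.
Hmgcs1: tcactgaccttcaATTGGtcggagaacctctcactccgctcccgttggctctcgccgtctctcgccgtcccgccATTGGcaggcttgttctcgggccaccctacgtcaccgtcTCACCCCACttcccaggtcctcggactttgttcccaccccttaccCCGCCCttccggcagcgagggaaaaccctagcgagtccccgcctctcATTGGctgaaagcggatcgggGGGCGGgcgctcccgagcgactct
Insig1: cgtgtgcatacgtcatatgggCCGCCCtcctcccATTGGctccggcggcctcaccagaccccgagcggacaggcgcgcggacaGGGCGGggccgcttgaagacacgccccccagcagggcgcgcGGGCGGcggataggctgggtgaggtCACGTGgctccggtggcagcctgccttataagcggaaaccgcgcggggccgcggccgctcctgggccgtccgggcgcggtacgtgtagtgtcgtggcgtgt
Srebf2: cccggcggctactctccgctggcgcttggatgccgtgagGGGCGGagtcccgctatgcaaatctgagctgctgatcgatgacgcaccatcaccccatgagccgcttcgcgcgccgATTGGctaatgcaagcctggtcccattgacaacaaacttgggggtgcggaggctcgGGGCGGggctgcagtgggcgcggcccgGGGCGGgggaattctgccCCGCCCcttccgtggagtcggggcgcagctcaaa
Sc5d: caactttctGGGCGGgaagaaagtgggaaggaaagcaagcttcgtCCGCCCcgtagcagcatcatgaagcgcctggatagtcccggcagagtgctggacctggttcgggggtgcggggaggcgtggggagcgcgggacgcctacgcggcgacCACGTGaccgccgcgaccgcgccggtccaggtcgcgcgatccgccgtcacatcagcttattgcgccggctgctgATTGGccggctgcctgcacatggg
Hmgcs1 carries TCACCCCAC at 137 bases before the start, beside 3 CCAAT and 2 GGGCGG matches. The Insig1 stretch holds 1 CACGTG, 1 CCAAT and 3 GGGCGG matches, that of Sc5d 1, 1 and 2, and that of Srebf2 1 CCAAT and 4 GGGCGG matches.

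In saline-treated WT livers the 26 genes ranged from 271 ± 14 TPM (SD, n = 3) for Ebp to 2.90 ± 0.03 TPM for Ggps1. TPM is a level per gene length, so genes can be ordered by it. Ebp, Sc5d, Insig1, Hmgcs1 and Msmo1 led that order, and Ggps1, Lbr, Lss, Idi1 and Mvk closed it. The 26 genes summed to 1611 to 2117 TPM in the WT and 1809 to 2028 TPM in the KO mice given saline. After ConA the WT mice reached 1541 to 1832 TPM and the KO mice 1241 to 1688 TPM. The sums of the saline and ConA mice overlapped in WT, whereas every KO ConA mouse was below every KO saline mouse. Single genes ranged from a 4.17-fold lower to a 3.51-fold higher mean after ConA, as the map of the 26 genes in 14 livers shows.

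**Figure D1:**
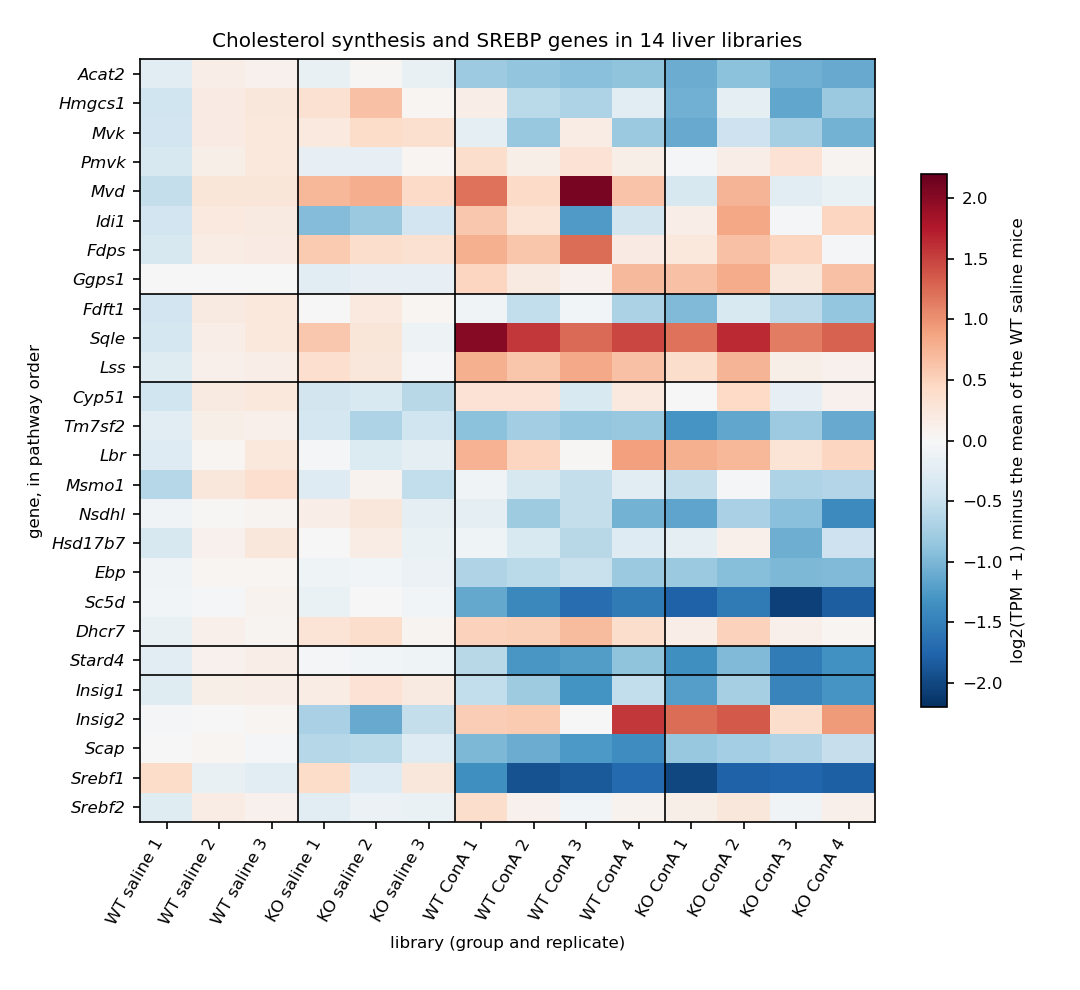
Level of each of the 26 genes (rows, in pathway order) in each of the 14 libraries (columns, by group), as log2(TPM + 1) minus the mean of the WT saline mice; red is higher and blue lower. After ConA, Sqle was higher and Sc5d, Stard4 and Srebf1 were lower in every mouse of both genotypes than in any saline mouse of their genotype, while Srebf2 stayed near 0 in color and Mvd and Insig2 varied widely between mice.

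ConA moved these genes in both directions, and the direction did not follow the order of the pathway. Calls are genes whose limma test on log2(TPM + 1) passed an adjusted p under 0.05 (Benjamini-Hochberg, over all genes tested), and fold changes are differences of group means on that scale. In WT livers 14 of the 26 genes were called, 5 higher and 9 lower, beside 53% of 10768 genes tested (22% higher, 31% lower). In KO livers 18 were called, 6 higher and 12 lower, beside 64.6% of 10988 genes (33.9% higher, 30.7% lower). The median log2 fold change of the 26 genes was -0.32 in WT, where it was -0.07 over all genes, and -0.31 in KO, where it was 0.07 over all genes. The share of called genes was thus close to that of the whole liver transcriptome in both genotypes. After each library was rescaled by its median ratio to the others, 7 were higher and 8 lower in WT and 6 higher and 12 lower in KO. Of all genes the rescaled fits called 2931 of 10768 higher and 3115 lower in WT. In KO they called 3956 of 10988 higher and 3703 lower. Saline and ConA mice did not overlap in 14 of the genes in WT (5 higher, 9 lower), beside 58% of the genes tested (23.3% higher, 34.7% lower), and in 18 in KO (7 higher, 11 lower), beside 64.3% (32.8% higher, 31.5% lower).

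The WT and KO comparisons share no mouse, and 9 genes were called in the same direction in both, 64.3% of the WT calls and 50% of the KO calls. Over all genes the shares were larger, at 80.9% of the WT and 65.0% of the KO calls, or 43.6% of the 10586 genes tested in both against 34.6% of the 26. Sqle was the 1 gene higher in both. Acat2, Tm7sf2, Nsdhl, Ebp, Sc5d, Stard4, Insig1 and Srebf1 were lower in both. Fdps, Lss, Dhcr7 (higher) and Scap (lower) were called in WT alone, and Idi1, Ggps1, Cyp51, Lbr, Insig2 (higher), Hmgcs1, Mvk and Fdft1 (lower) in KO alone. Mvd was called in opposite directions, as were 21 of all genes. Pmvk, Msmo1, Hsd17b7 and Srebf2 were called in neither. A call in 1 genotype alone does not show a difference between genotypes, which was tested separately.

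**Figure D2:**
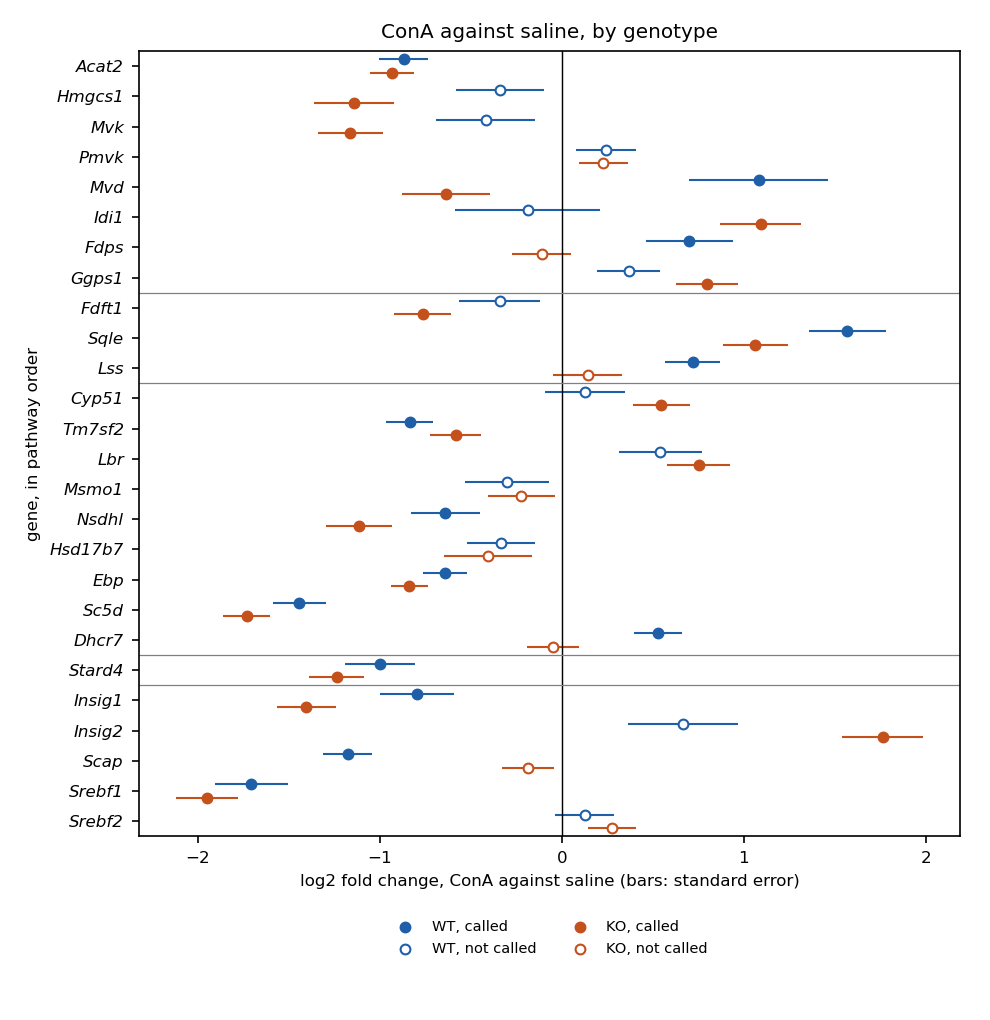
Log2 fold change of ConA against saline mice for each of the 26 genes in pathway order, WT in blue and KO in orange; filled points passed an adjusted p under 0.05, open points did not, and bars are standard errors. The upper lines separate the mevalonate, squalene and lanosterol groups, the lower ones Stard4 and the SREBP regulators. Sqle lies right of 0 and Sc5d and Srebf1 lie farthest left in both genotypes, and the pairs lie farthest apart for Mvd, Idi1, Insig2 and Scap.

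The mevalonate group holds 8 genes, from Acat2, the thiolase that joins acetyl-CoA units, to the synthases of farnesyl and geranylgeranyl diphosphate. In WT livers 2 were higher and 1 lower after ConA, and in KO livers 2 were higher and 4 lower. Acat2 fell in WT mice from between 41.8 and 55.2 TPM after saline to between 25.9 and 28.0 TPM after ConA (log2 fold change -0.87 ± 0.13 (SE), adjusted p = 0.000548), and to a like degree in KO mice, from 44.1 to 50.7 to 22.6 to 26.3 TPM (-0.93 ± 0.12, adjusted p = 4.96e-05). Of the 50-base stretches of its transcript, 54.1% are found in no other gene, since Acat3 shares most of the rest, so reads of Acat2 and Acat3 may have been mixed. Hmgcs1, the synthase that makes HMG-CoA, lay at 113 to 202 TPM in WT ConA mice and overlapped the 133 to 217 TPM of the saline group (-0.34, adjusted p = 0.261). It fell in KO mice from 186 to 285 TPM to 82.0 to 157 TPM (-1.14 ± 0.22, adjusted p = 0.000889). Mvk, the first kinase of mevalonate, fell in KO mice from 15.6 to 17.98 TPM to 5.62 to 9.43 TPM (-1.16 ± 0.18). In WT mice it was at 9.71 to 15.7 and 7.04 to 14.9 TPM (-0.42, adjusted p = 0.227), a difference that passed the test only without WT ConA mouse 3 (-0.61, adjusted p = 0.0487). Pmvk, the next kinase, stayed between 16.9 and 28.7 TPM in all 14 mice.

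Mvd makes isopentenyl diphosphate. It was at 12.4, 21.98 and 22.02 TPM in WT saline mice and at 43.1, 24.6, 80.6 and 28.7 TPM in WT ConA mice, and all 4 ConA mice were above the saline mice (1.08 ± 0.38, adjusted p = 0.0372). In KO mice it was at 30.7, 32.3 and 24.8 TPM after saline and at 14.1, 31.4, 15.4 and 16.4 TPM after ConA, so that KO ConA mouse 2 remained within the saline range (-0.64 ± 0.24, adjusted p = 0.0377). Both Mvd calls depended on single mice and on the fit. The WT call was lost in 6 of 16 alternatives (highest adjusted p = 0.145, without WT saline mouse 1) and the KO call in 8 of 15 (highest 0.122, with all 14 libraries in the fit). The fit without KO ConA mouse 3 is repeated among the 8 and the 15.

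Idi1, the isomerase that follows, was at 4.33, 4.81 and 6.68 TPM in KO saline mice and rose to 10.4, 17.6, 9.11 and 13.2 TPM in KO ConA mice, with no overlap (1.09 ± 0.22, adjusted p = 0.00133). In WT mice it was at 6.71, 10.96 and 10.8 TPM after saline and scattered from 3.34 TPM in mouse 3 to 14.6 TPM in mouse 1 after ConA (-0.19 ± 0.40, adjusted p = 0.720). Of the 50-base stretches of Idi1, 69.5% are found in no other gene, and 5 genes share some of the rest, Gm13502 most. Fdps, the farnesyl diphosphate synthase, was at 118, 169 and 170.0 TPM in WT saline and at 259, 231, 353 and 169.6 TPM in WT ConA mice. WT ConA mouse 4 overlapped the saline mice, and the call (0.70 ± 0.24, adjusted p = 0.0338) was lost in 10 of 16 alternatives, with an adjusted p of up to 0.135. The fit without WT ConA mouse 3 is repeated among the 10 and the 16. KO saline mice had 191 to 223 TPM of Fdps and KO ConA mice 145 to 235 TPM. Only 13.6% of the 50-base stretches of Fdps are found in no other gene, most being shared with the overlapping gene model Gm43738, so its level is uncertain. Ggps1, which makes geranylgeranyl diphosphate on a side branch, was the least abundant of the 26 in WT saline mice. It was at 2.27, 2.44 and 2.43 TPM in KO saline and at 5.12, 5.91, 3.64 and 5.07 TPM in KO ConA mice, all above (0.80 ± 0.17, adjusted p = 0.00175). WT mice had 2.88 to 2.94 TPM after saline and 3.15 to 5.43 TPM after ConA (0.37 ± 0.17, adjusted p = 0.103). This difference passed the test without WT ConA mouse 3 (0.46, adjusted p = 0.0216) and with rescaled libraries (0.44, adjusted p = 0.0297). It was not called in 12 of 15 alternatives.

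Fdft1, Sqle and Lss carry carbon from farnesyl diphosphate into squalene, squalene epoxide and lanosterol. Sqle, the epoxidase and a control point of the pathway (chr15:59315092-59331193, GRCm38.p6), had the largest rise of the 26 in WT livers. It was at 29.2, 42.7 and 45.5 TPM in WT saline and at 157, 115, 92.9 and 108 TPM in WT ConA mice, a 3.02-fold higher mean with no overlap (1.57 ± 0.21, adjusted p = 0.000242). KO mice had 58.4, 46.6 and 35.5 TPM after saline and 89.1, 122, 84.7 and 96.3 TPM after ConA, again with no overlap (1.06 ± 0.18, adjusted p = 0.000364). Lss, the cyclase that forms lanosterol, rose in WT mice from 7.09, 9.59 and 9.80 TPM to 15.8, 13.9, 16.4 and 14.2 TPM (0.72 ± 0.15, adjusted p = 0.00321). In KO mice it was at 11.6, 10.6 and 8.47 TPM after saline and at 11.7, 15.3, 9.62 and 9.45 TPM after ConA, and the groups overlapped (0.14 ± 0.19, adjusted p = 0.523). Fdft1, the squalene synthase, lay at 57.9 to 92.5 and 47.8 to 74.9 TPM in WT saline and ConA mice (-0.34, adjusted p = 0.222) and fell in KO mice from 77.7 to 90.5 TPM to 39.3 to 61.5 TPM (-0.76 ± 0.16, adjusted p = 0.00137). The exons of Fdft1 overlap those of Ctsb on the opposite strand, and 69.3% of its 50-base stretches are its own. Within this short segment, then, the enzyme before Sqle was lower after ConA in KO livers while Sqle was higher.

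From lanosterol to cholesterol 9 enzymes were measured, of which 1 was higher and 4 lower in WT and 2 higher and 4 lower in KO livers. Cyp51, the lanosterol demethylase, was at 40.7 to 65.6 TPM after saline and 43.9 to 69.6 TPM after ConA in WT mice (0.13, adjusted p = 0.649), and rose in KO mice from 35.9 to 43.5 TPM to 49.0 to 75.9 TPM (0.55 ± 0.15, adjusted p = 0.00920). Tm7sf2 and Lbr encode reductases that can serve the same step, the latter also a protein of the inner nuclear membrane, and their calls had opposite signs. Tm7sf2 was at 121, 157 and 155 TPM in WT saline mice and fell to 76.1, 84.3, 78.7 and 80.3 TPM in WT ConA mice (-0.84 ± 0.13, adjusted p = 0.00055). In KO mice it fell from 109, 88.8 and 106 TPM to 57.9, 64.3, 82.3 and 65.6 TPM (-0.58 ± 0.14, adjusted p = 0.00374). Lbr rose in KO mice from 3.08 to 3.95 TPM to 5.19 to 7.68 TPM (0.75 ± 0.17, adjusted p = 0.00280). WT mice had 3.15 to 4.91 and 4.11 to 8.37 TPM of Lbr (0.54 ± 0.23, adjusted p = 0.0722). Without WT ConA mouse 3 this difference passed the test (0.71, adjusted p = 0.00657). It also passed with rescaled libraries (adjusted p = 0.0182) and with all 14 libraries in the fit (adjusted p = 0.0347), but not in 12 of 16 alternatives. Even the higher Lbr levels remained about an order of magnitude below those of Tm7sf2.

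Msmo1, Nsdhl and Hsd17b7 remove methyl groups from the sterol ring. Nsdhl fell in both genotypes, from 38.8 to 42.6 TPM to 19.3 to 35.3 TPM in WT (-0.64 ± 0.19, adjusted p = 0.0189) and from 35.4 to 49.0 TPM to 14.95 to 24.6 TPM in KO mice (-1.11 ± 0.18, adjusted p = 0.000269). Its WT call was lost in 5 of 16 alternatives, with an adjusted p of up to 0.0689 (without WT saline mouse 3). Msmo1 and Hsd17b7 overlapped between saline and ConA mice of each genotype, with log2 fold changes from -0.41 to -0.22. Without WT saline mouse 1, Msmo1 passed the test in WT (-0.61, adjusted p = 0.0152), and without KO ConA mouse 2 Hsd17b7 passed in KO (-0.58, adjusted p = 0.0467). The isomerase Ebp and the desaturase Sc5d follow, and they had the highest levels of the 26 genes in WT saline mice. Ebp went from 255 to 280 TPM to 154 to 192 TPM in WT (-0.64 ± 0.12, adjusted p = 0.00162) and from 248 to 260 TPM to 136 to 153 TPM in KO mice (-0.84 ± 0.10, adjusted p = 3.11e-05). Sc5d (chr9:42251592-42264300) fell most of all enzymes. It was at 201, 206 and 219 TPM in WT saline and at 94.7, 77.7, 64.9 and 70.1 TPM in WT ConA mice, a 2.71-fold lower mean (-1.44 ± 0.15, adjusted p = 4.40e-05). KO mice had 188, 207 and 201 TPM after saline and 60.2, 70.1, 49.6 and 58.4 TPM after ConA, a 3.33-fold lower mean (-1.73 ± 0.13, adjusted p = 9.80e-07). Dhcr7, the reductase of the last step of this branch, was higher in WT ConA than in WT saline mice (45.8 to 57.3 against 31.0 to 37.7 TPM, 0.53 ± 0.13, adjusted p = 0.00783). In KO mice it was at 36.5 to 45.8 and 35.9 to 49.9 TPM (-0.05, adjusted p = 0.785).

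Stard4, a soluble carrier that moves cholesterol between membranes, fell in both genotypes. It was at 24.4, 30.8 and 32.2 TPM in WT saline and 18.6, 11.3, 11.7 and 15.3 TPM in WT ConA mice (-1.001 ± 0.19, adjusted p = 0.00198), and at 28.4, 27.7 and 27.1 TPM in KO saline and 10.8, 14.2, 9.31 and 10.9 TPM in KO ConA mice (-1.24 ± 0.15, adjusted p = 3.53e-05). Saline and ConA mice did not overlap in either genotype.

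The SREBP regulators did not move together. Srebf1 (chr11:60199084-60224186) had the largest fall of the 26 genes in both genotypes. It was at 62.8, 42.2 and 39.9 TPM in WT saline and at 17.98, 11.8, 12.5 and 13.7 TPM in WT ConA mice, a 3.45-fold lower mean (-1.71 ± 0.20, adjusted p = 0.000105). KO mice had 62.7, 38.5 and 56.4 TPM after saline and 11.1, 13.04, 13.5 and 12.9 TPM after ConA, a 4.17-fold lower mean (-1.95 ± 0.17, adjusted p = 3.09e-06). The gene-level value does not separate the SREBP-1a and SREBP-1c transcripts. Srebf2 was at 12.3, 16.9 and 16.02 TPM in WT saline and at 19.9, 15.95, 14.3 and 15.8 TPM in WT ConA mice (0.13 ± 0.16, adjusted p = 0.548). It was at 12.4, 13.7 and 13.4 TPM in KO saline and at 16.3, 17.9, 14.1 and 16.3 TPM in KO ConA mice (0.28 ± 0.13, adjusted p = 0.0909). Every KO ConA mouse was above the KO saline mice, and without KO ConA mouse 3 the difference passed the test (0.33, adjusted p = 0.0169).

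The INSIG genes had opposite signs. Insig1, itself a target of SREBP, was at 161, 209 and 212 TPM in WT saline and at 132, 112, 76.6 and 132 TPM in WT ConA mice (-0.80 ± 0.21, adjusted p = 0.00949), and at 217, 240.2 and 220.3 TPM in KO saline and 82.2, 115, 69.8 and 77.6 TPM in KO ConA mice (-1.40 ± 0.16, adjusted p = 2.18e-05), with no overlap in either genotype. Insig2 (chr1:121304353-121332662) was at 43.6, 32.9 and 50.04 TPM in KO saline mice and rose to 171, 186, 95.6 and 139 TPM in KO ConA mice, a 3.51-fold higher mean and the largest rise in KO livers (1.76 ± 0.22, adjusted p = 4.37e-05). In WT mice it was at 70.7, 71.8 and 74.9 TPM after saline and at 106, 108, 72.1 and 216 TPM after ConA. WT ConA mouse 3 lay inside the saline range (0.67 ± 0.30, adjusted p = 0.0932). The difference passed the test without that mouse (0.89, adjusted p = 0.0182) and with rescaled libraries (0.76, adjusted p = 0.0357). It was not called in 13 of 16 alternatives. Scap (chr9:110333288-110384949), the escort of the SREBP precursors, was at 27.0, 27.7 and 26.3 TPM in WT saline mice and fell to 13.1, 12.1, 10.7 and 9.87 TPM in WT ConA mice, a 2.36-fold lower mean (-1.18 ± 0.14, adjusted p = 9.66e-05). In KO mice it was at 17.2, 17.6 and 22.1 TPM after saline and at 14.8, 15.7, 16.6 and 18.7 TPM after ConA, and the groups overlapped (-0.19 ± 0.14, adjusted p = 0.270).

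**Figure D3:**
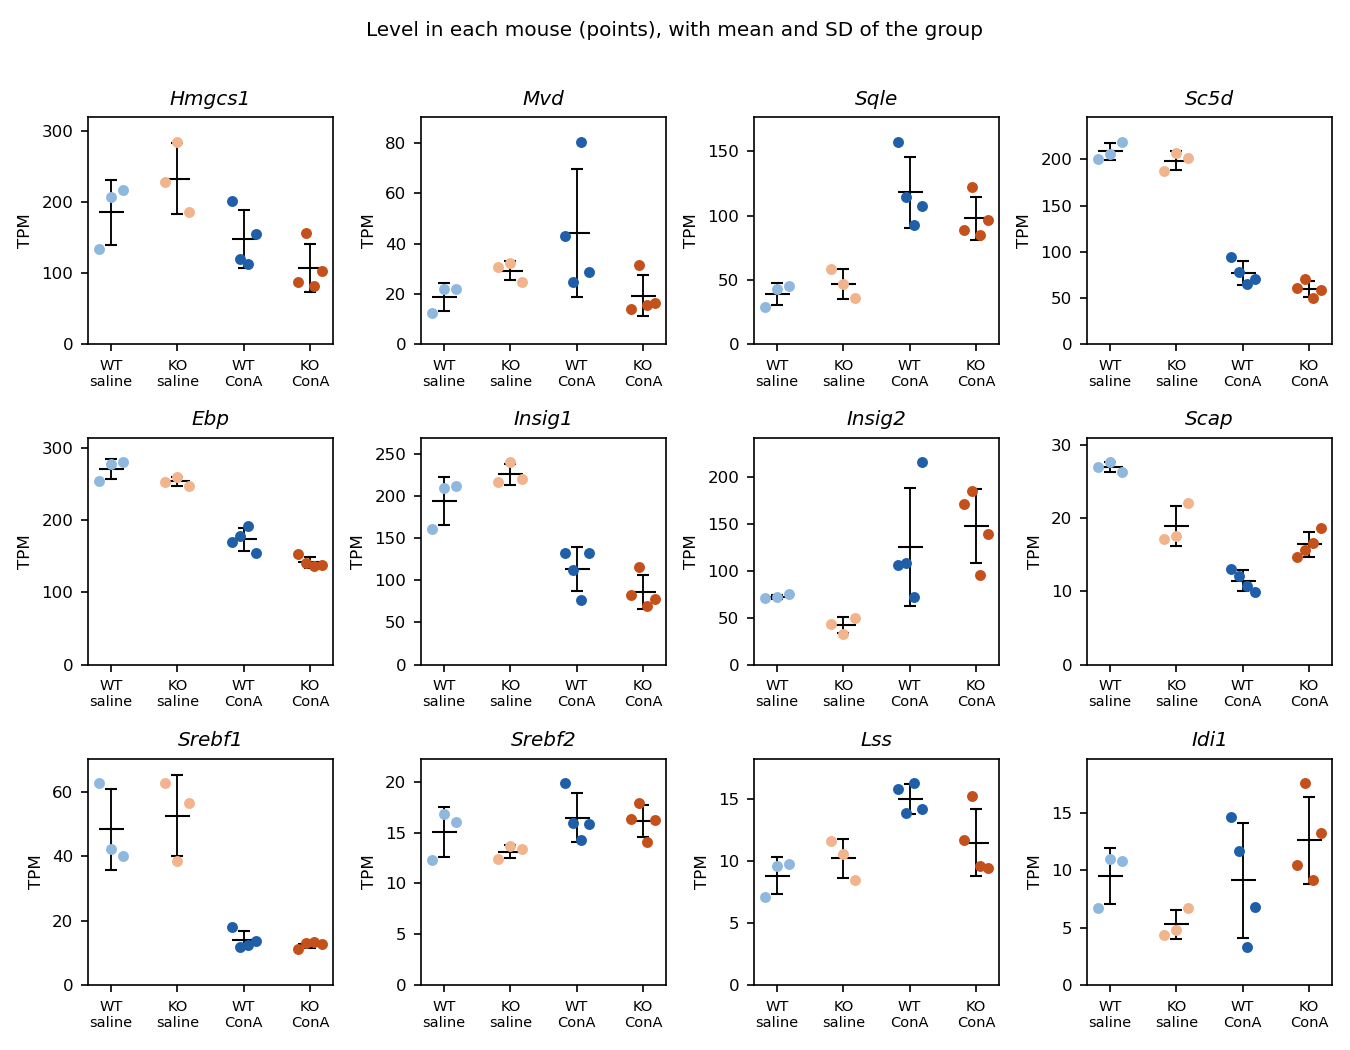
TPM of 12 of the 26 genes in each mouse (points, 3 or 4 per group), with the mean and SD of the group in black; every axis starts at 0. Sc5d, Ebp, Insig1 and Srebf1 are lower and Sqle is higher after ConA in both genotypes, Mvd reaches 80.6 TPM in 1 WT ConA mouse, and Scap is lower in every KO than in every WT mouse after saline and higher in every KO mouse after ConA.

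Genes around the pathway were taken from lists chosen with earlier results known. Of 12 other sterol and isoprenoid enzymes, 3 were higher and 5 lower after ConA in WT and 5 higher and 4 lower in KO livers. Cyb5r3 and Cyb5b, which pass electrons to the sterol desaturase and demethylases, fell in both (Cyb5r3 with log2 fold changes of -1.60 and -2.23, Cyb5b of -1.35 and -1.07 in WT and KO). Dhdds, of dolichol synthesis, rose by 1.49 in WT and 1.45 in KO, Fntb, a farnesyltransferase subunit, by 0.81 in WT, and Nus1, the partner of Dhdds, by 1.05 in KO. Of 21 genes of sterol sensing and trafficking, 19 were tested in WT and 20 in KO, and 1 was higher and 9 lower in WT and 4 higher and 6 lower in KO livers. Npc1, which exports cholesterol from lysosomes, fell by 2.05 in WT and 1.88 in KO on the log2 scale, and Osbp, an oxysterol-binding lipid exchanger, rose by 1.55 and 1.39. Pgrmc1 fell by 1.27 in WT and Aup1 by 1.25 in KO, and Soat1, which esterifies cholesterol, rose by 1.07 in KO.

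Among 22 lipogenic genes, not all of which SREBP-1c is known to drive, 20 were tested in each genotype. After ConA 1 was higher and 15 lower in WT (median -1.03) and none was higher and 18 were lower in KO livers (median -1.29), beside medians of -0.07 and 0.07 over all genes. Fads2 (-2.95) and Mid1ip1 (-1.96) had the largest falls in WT and Pklr (-3.02) and Thrsp (-2.74) in KO mice, and Aacs, which activates acetoacetate for lipid synthesis, was the gene higher in WT (0.69). Of 13 LXR targets and oxysterol genes, 11 were tested in WT and 12 in KO, and 2 were higher and 7 lower in each. Ch25h, which makes an oxysterol, rose by 3.30 in WT and 4.34 in KO on the log2 scale, and Abca1, a cholesterol exporter, by 2.32 and 3.21. Cyp7a1, the rate-limiting enzyme of bile acid synthesis, fell by 5.95 and 4.37, Abcg8 by 2.38 in WT and Lpcat3 by 2.32 in KO. Of 10 feeding and fasting genes, 3 were higher in each genotype, and 6 were lower in WT and 4 in KO. Igfbp1 rose by 3.34 in WT and 6.12 in KO and Pdk4 by 1.21 and 3.16, while G6pc fell by 3.97 and 4.56 and Pck1 by 2.21 and 2.60. Food intake of the mice was not given.

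These are bulk livers, in which fewer cells of a type and less RNA per cell cannot be told apart. Summed hepatocyte markers went from 110099 to 126798 TPM after saline to 82771 to 102462 TPM after ConA in WT mice, and in KO mice the ranges were 97840 to 117381 TPM and 77889 to 88818 TPM. Of 10 hepatocyte markers, 2 were higher and 5 lower in WT and 3 higher and 6 lower in KO livers after ConA. Cyp2e1 (-1.91) and Cps1 (-1.27) fell most in WT and Ass1 (-1.31) and Alb (-0.98) in KO, while the acute-phase protein Hpx rose by 2.46 and 2.84 and Tat by 0.78 and 0.56 on the log2 scale. Neutrophil markers summed to 6.08 to 12.01 TPM in saline mice of both genotypes, and ConA mice had 329.7 to 580.2 TPM (WT) and 428 to 985 TPM (KO), and 9 of 10 were called higher in each genotype, led by S100a8 (5.78 and 6.77) and S100a9 (6.30 and 7.26). Kupffer cell and macrophage markers summed to 141 to 236 TPM (WT) and 67.6 to 151 TPM (KO) in saline mice and to 28.8 to 99.8 TPM (WT) and 25.03 to 92.5 TPM (KO) in ConA mice, with 9 of 11 lower in WT and 1 higher and 4 lower in KO. Clec4f (-3.32 and -2.13) fell in both, Cd5l (-2.98) in WT and Vsig4 (-2.08) in KO, and Cd68 (0.74) was higher in KO. Sinusoidal endothelial markers (9 tested) were 2 higher and 3 lower in WT and 3 higher and 4 lower in KO. Clec4g (-1.69 and -2.52) and Kdr (-0.92 and -1.58) were lower and Lyve1 (1.51 and 1.98) higher in both, and Pecam1 (0.84) was higher in WT and Cdh5 (1.32) in KO. Stellate cell markers were 1 of 4 tested lower in WT and 4 of 8 lower in KO, with none higher, Colec11 (-1.58 and -2.48) and, in KO, Lrat (-1.46) leading. The part of these cell markers in the sterol gene results was not tested.

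Between the genotypes after saline, 4 of the 26 genes were called and all were lower in KO mice, beside 19.2% of 10459 genes tested (12.9% lower, 6.3% higher). Insig2 was 43.6, 32.9 and 50.04 TPM in KO and 70.7 to 74.9 TPM in WT mice (-0.79 ± 0.15, adjusted p = 0.0202). Scap was lower by 0.50 ± 0.11 on the log2 scale (adjusted p = 0.0267), Tm7sf2 by 0.50 ± 0.13 (adjusted p = 0.0399) and Idi1 by 0.73 ± 0.21 (adjusted p = 0.0462). In each of these 4 every KO saline mouse was below every WT saline mouse. Of all 26 genes, 8 did not overlap between these groups, 3 higher and 5 lower, beside 42.3% of the genes tested (13% higher, 29.2% lower). The median log2 fold change was -0.06 and that of all genes -0.10. None of the 4 calls held when WT saline mice 2 and 3 were averaged (adjusted p = 0.160 for Idi1, 0.150 for Tm7sf2, 0.0929 for Insig2 and 0.109 for Scap), and leaving out 1 mouse gave between 0 and 5 calls, with none without WT saline mouse 2, WT saline mouse 3 or KO saline mouse 1 and 1 without KO saline mouse 2. These refits also called fewer of all genes, 49 with the average against 2009 in the main fit. Without the mice just named, in that order, they called 51, 45, 286 and 640 of all genes. Of the surrounding lists, 4 of 21 lipogenic genes were higher and none lower in KO saline mice, and 2 of 12 other sterol enzymes, 4 of 19 sensing and trafficking genes and 3 of 11 LXR targets were lower and none higher. Sinusoidal endothelial markers were also higher in KO saline mice (5 of 8 tested called, sums of 40.3 to 67.6 against 25.01 to 35.1 TPM). Of 8 stellate cell markers 2 were called higher, and their sums overlapped (86.2 to 145 against 22.7 to 93.7 TPM). Of 10 hepatocyte markers 1 was higher and 3 were lower. None of 11 Kupffer cell and macrophage markers was called (sums of 67.6 to 151 against 141 to 236 TPM), and none of 5 neutrophil markers tested.

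Between KO ConA and WT ConA mice limma called none of the 26 genes, beside 0.428% of 10519 genes (0.342% higher, 0.0856% lower). An unadjusted p under 0.05 was reached by 6 of the 26, and all genes at that unadjusted threshold were not counted. All 14 libraries in the fit called 1, Scap, beside 640 of all genes. Of the 26 log2 fold changes 21 were negative, with a median of -0.25 beside 0.05 over all genes, and they ran from -1.07 for Mvd to 0.55 for Idi1. KO and WT mice did not overlap in 2 genes, or 7.69% of the 26, beside 10.5% of all genes tested (6.37% higher, 4.11% lower). Scap was at 14.8, 15.7, 16.6 and 18.7 TPM in KO ConA against 13.1, 12.1, 10.7 and 9.87 TPM in WT ConA mice (0.49 ± 0.15, adjusted p = 0.140). Ebp was at 153, 140.4, 136 and 138 TPM in KO ConA against 170.0, 178, 192 and 154 TPM in WT ConA mice (-0.29 ± 0.12, adjusted p = 0.244). The others with an unadjusted p under 0.05 were Mvd (-1.07 ± 0.35, adjusted p = 0.165), Sc5d (-0.36 ± 0.16, 0.276), Dhcr7 (-0.33 ± 0.14, 0.273) and Lss (-0.38 ± 0.17, 0.294). Summed neutrophil markers were 428 to 985 TPM in the KO and 329.7 to 580.2 TPM in the WT mice, with 0 of 10 called, and their part in these values was not tested.

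**Figure D4:**
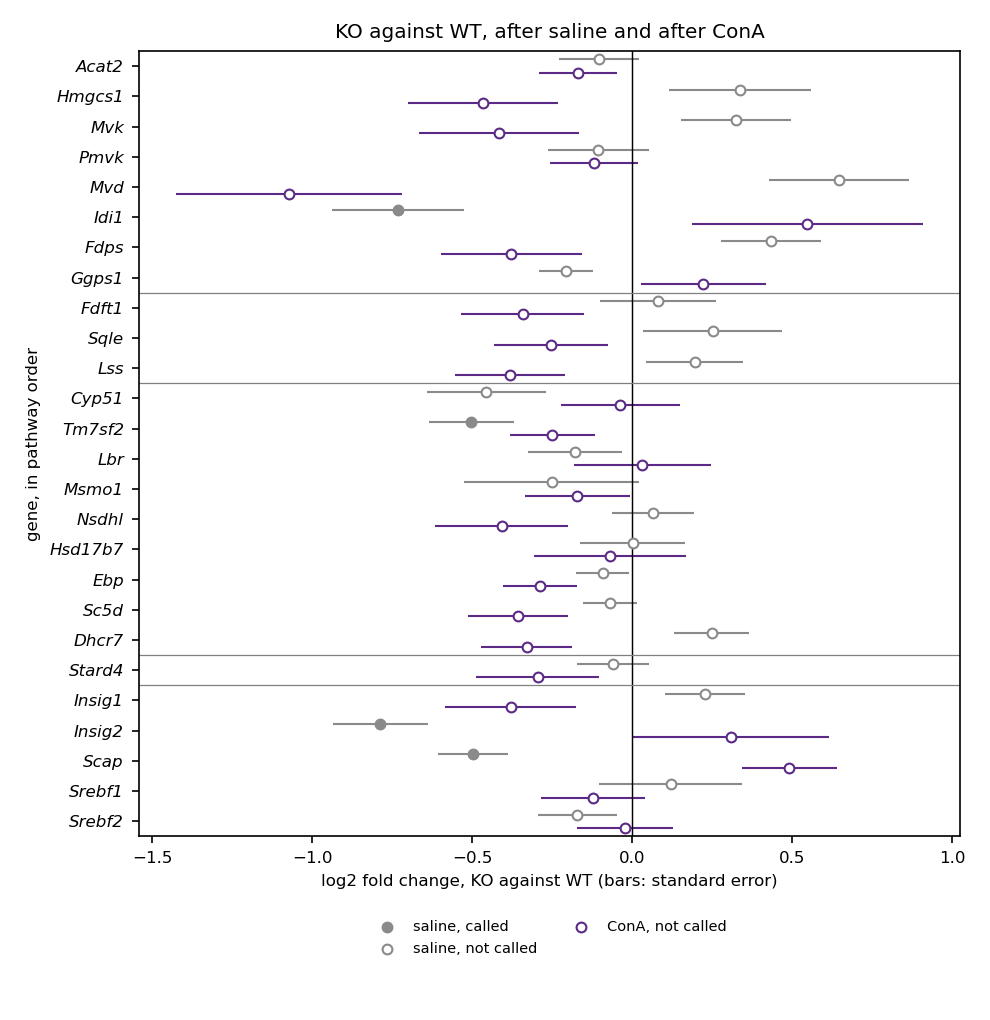
Log2 fold change of KO against WT mice for each of the 26 genes in pathway order, after saline in grey and after ConA in purple; filled points passed an adjusted p under 0.05 and bars are standard errors. The filled points are Idi1, Tm7sf2, Insig2 and Scap after saline, all left of 0, and no gene passed after ConA.

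Whether the ConA response differed between genotypes was tested as the interaction over all 14 mice. Of the 26 genes 1 was called, beside 4.78% of 11327 genes (2.64% higher, 2.14% lower). An unadjusted p under 0.05 was reached by 10 of the 26. How many of all genes reached that unadjusted threshold was not counted, so the 10 cannot be set beside a share. Scap fell by 1.18 in WT and had a log2 fold change of -0.19 in KO livers, a difference of 0.99 ± 0.19 (adjusted p = 0.0206). By level of Scap the 4 groups stood in the order WT after saline (27.0 ± 0.7 TPM, SD, n = 3), KO after saline (18.9 ± 2.7, n = 3), KO after ConA (16.5 ± 1.7, n = 4) and WT after ConA (11.4 ± 1.4, n = 4), and the neighbors KO saline and KO ConA overlapped. The Scap difference was lost in 5 of 22 alternatives, with an adjusted p of 0.0753 when WT saline mice 2 and 3 were averaged and of up to 0.0817 when 1 saline mouse was left out (WT saline mouse 2 or 3, KO saline mouse 1 or 2). Over all genes the calls also fell, from 541 to 28 with the average. Without these single mice, in the order given, they fell to 27, 22, 33 and 63. Of the 50-base stretches of Scap, 86.9% are found in no other gene. Mvd had the largest interaction, -1.72 ± 0.50 (adjusted p = 0.0582), followed by Idi1 (1.28 ± 0.50, 0.131) and Insig2 (1.10 ± 0.41, 0.123). Without WT ConA mouse 4 Scap, Mvd, Insig2 and Fdps were called, and without WT ConA mouse 2 Scap and Mvd. Over all genes the calls of these 2 refits also rose, from 541 to 766 of 11294 and to 617 of 11304. The rescaling of libraries moved the median interaction of all genes by -0.11, and Scap was called after it too (0.86, adjusted p = 0.0481).

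In some mice most of the 26 genes lay on the same side of the group mean. WT saline mouse 1 had the lowest value of its group in 24 of the 26 genes, or 92.3%, against 46.3% of the 8743 genes at TPM of 1 or more in every library. Mice 2 and 3 were alike there, and mouse 1 had the highest value in 1 of the 26 genes, against 35.2% of all genes. Msmo1 was at 114 TPM in that mouse and at 211 and 227 TPM in the others, and Hmgcs1 at 133 against 207 and 217 TPM. Srebf1 went the other way, with 62.8 TPM in mouse 1 and 42.2 and 39.9 TPM in mice 2 and 3, and Scap differed least (27.0 against 27.7 and 26.3 TPM). KO ConA mouse 2 had the highest value in 20 of the 26 genes, or 76.9%, against 23.2% of all genes, and WT ConA mouse 1 in 14, or 53.8%, against 22.1%. Median deviations from the group mean were -0.26, 0.32 and 0.22 on the log2 scale in these 3 mice for the 26 genes and -0.02, 0.09 and 0.05 for all genes. In the KO saline mice the medians were smaller, at -0.004, 0.054 and -0.035, with 12, 17 and 10 of the 26 genes above the group mean. By rank they also differed from all genes. KO saline mouse 2 had the highest value in 15 of the 26 genes, or 57.7%, against 25.7% of all genes. KO saline mouse 3 had the lowest value in 13, or 50%, against 24.6%. In WT ConA mouse 3 the genes split, with Mvk, Mvd, Fdps, Fdft1, Lss, Ebp and Dhcr7 at the highest and 13 others, among them Idi1, Insig1, Insig2 and Srebf2, at the lowest value of the group.

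**Figure D5:**
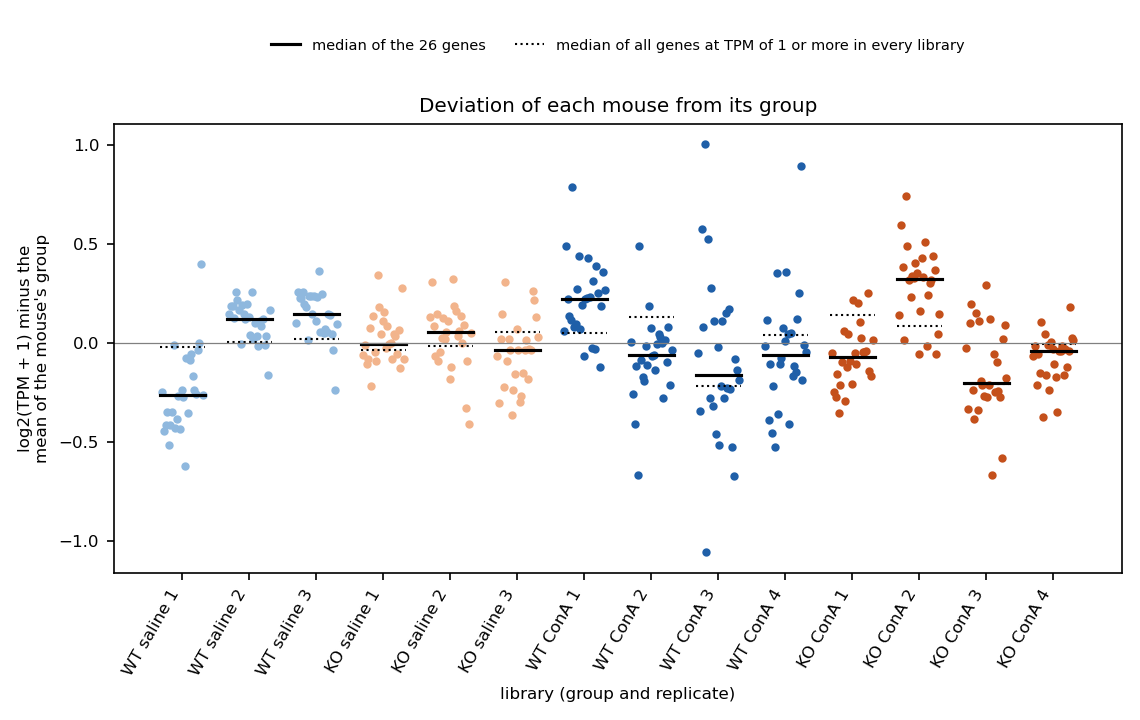
Deviation of each of the 26 genes (points) from the mean of its group in each mouse, on the log2(TPM + 1) scale; solid lines are the medians of the 26 genes and dotted lines those of all genes at TPM of 1 or more in every library. The solid line lies below 0 in WT saline mouse 1 (-0.26) and above it in KO ConA mouse 2 (0.32) and WT ConA mouse 1 (0.22), while the dotted lines of these mice lie near 0.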

How the data were processed

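RNA of 14 mouse livers, 1 library per mouse, was sequenced as single-end reads. The authors deposited TPM for the same 17656 genes in each library, and each library sums to 1000000. The submitters' processing notes name GRCm38.p6, Bowtie2 and RSEM 1.3.1, whereas the study's methods name STAR, HTSeq and edgeR, so which tools made the TPM is open, and annotation, filters, strand setting and number of reads are not given in the sources used here. TPM sets each library to the same sum, so a rise of very abundant transcripts lowers all others. Depth is unknown, and no interval from counts is given.

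Groups followed the labels. Values were tested as log2(TPM + 1) with limma 3.58.1 in R 4.3.3 (eBayes with an intensity trend, two-sided), on genes that reached TPM of 1 in no fewer libraries than the size of the smaller group, with Benjamini-Hochberg adjustment over all genes tested and a threshold of 0.05. Fold changes of low genes are understated on this scale. Each pair of groups was fitted on its own mice and the interaction on all 14. The labels name separate mice but not their litters. The fit was tested on simulated data with 200 changed genes. Tables and figures were made with Python 3.11.15, pandas 2.3.3, NumPy 2.4.6 and matplotlib 3.10.9. Per-mouse values are given for members called between genotypes or in the interaction, for the 4 largest called rises and falls of each ConA response and for the 5 SREBP regulators; of the other lists, the 2 largest called rises and falls of each ConA response are named. The 26 members and all other lists were chosen with earlier results of these data known. Alternatives were another pseudocount (0.1), a filter at TPM of 5 or none, rescaled libraries, all libraries in each fit, robust eBayes, a replicate block, WT saline mice 2 and 3 averaged, mouse 3 of both ConA groups left out and each mouse left out. For the ConA response of 1 genotype, leaving out mouse 3 of both ConA groups is the same fit as leaving out its own mouse 3. Counts of alternatives include both. Promoter windows and gene positions came from RefSeq, and transcripts and exon overlaps from GENCODE. The share of 50-base stretches of a gene found in no other gene was counted in its transcripts.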

Additional observations from a re-analysis of the deposited data

Results flagged for a closer look

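Dixon's test on TPM found 1 outlying mouse in 54 groups of 4 ConA mice, KO ConA mouse 2 for Mvd at 31.4 TPM, where the other KO ConA mice had 14.1 to 16.4 TPM. On the log2 scale it found 0, and chance alone would mark some of so many groups. The ConA response differed between KO and WT livers, by the interaction over all 14 mice in limma, for 1 of the 26 sterol genes and 6 genes of the surrounding lists. Of all 11327 genes tested, 4.78% were called. The list genes were 1 of 13 LXR targets and oxysterol genes, 1 of 21 lipogenic genes, 3 of 10 feeding and fasting genes and 1 of 10 hepatocyte markers. No gene of the other lists was called. For Scap the log2 difference was 0.99 (adjusted p = 0.0206), with all WT ConA mice below all WT saline mice and overlapping KO groups. Cyp7a1 differed by 1.59 (adjusted p = 0.00203). After saline, WT mice had 66.8 to 72.5 TPM and KO mice 17.7 to 26.3 TPM, and it was at 0.34 TPM or less in every ConA mouse, so the difference rests on the saline levels and, below 1 TPM, on the pseudocount. Fasn, the fatty acid synthase, differed by -1.25 (adjusted p = 0.0206), with WT mice at 42.8 to 48.8 TPM after saline and 33.5 to 52.5 TPM after ConA, and KO mice at 71.97 to 105.02 and 27.8 to 37.5 TPM. Igfbp1 differed by 2.78 (adjusted p = 0.0114), with ConA responses of 3.34 in WT and 6.12 in KO on the log2 scale. Its KO ConA mice, at 1220.4 to 2729 TPM, were all above the WT ConA mice, at 536 to 1126 TPM. Between genotypes after ConA, however, none of the 9 feeding and fasting genes tested was called. The interaction also takes in the saline levels. Pdk4 differed by 1.95 (adjusted p = 0.0465), with 11.7 to 34.7 TPM in KO ConA and 1.81 to 6.81 TPM in WT ConA mice. Irs2 differed by 1.03 (adjusted p = 0.0471) and Cyp2e1 by 1.17 (adjusted p = 0.0280). With rescaled libraries Pdk4, Irs2 and Cyp2e1 were not called (adjusted p = 0.0532, 0.0708 and 0.0599), and the other 4 were. Over 22 alternatives the call was lost in 14 for Pdk4, 14 for Irs2, 7 for Cyp2e1, 5 for Scap, 4 for Fasn, 1 for Cyp7a1 (pseudocount 0.1, adjusted p = 0.0820) and 1 for Igfbp1 (without WT saline mouse 3, adjusted p = 0.0503). With WT saline mice 2 and 3 averaged, Cyp7a1 and Igfbp1 were still called, among 28 of all genes, against 541 in the main fit. Causes were not tested.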

How the results depend on the processing

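Over 23 alternatives the 130 member values gave 2155 further values, of which 61 lost a call, 22 gained one and 50 changed direction, 0 of the last being called either way. These totals include the repeated fits of the ConA responses without mouse 3. The number of the 26 genes called after ConA was 11 to 17 (WT) and 17 to 19 (KO) when 1 mouse was left out. For KO against WT after saline, where 4 were called, no filter and rescaled libraries each left 2, all 14 libraries in the fit and averaged WT saline mice 2 and 3 each left 0, and leaving out 1 mouse gave 0 to 5. Of all genes, 2009 in the main fit, these first 4 settings called 958, 1623, 332 and 49. For KO against WT after ConA, where 0 were called, all 14 libraries in the fit called 1 and leaving out 1 mouse 0. The interaction, with 1 call, had 0 with WT saline mice 2 and 3 averaged, where the calls over all genes fell from 541 to 28. It had 0 to 4 with 1 mouse left out, and the 4 came without WT ConA mouse 4, where 766 of all genes were called. Deviations of same-numbered mice correlated unevenly (-0.20 to 0.15 and -0.05 to 0.12 between saline and ConA in WT and KO, -0.01 to 0.41 between genotypes after ConA and -0.002 to 0.34 after saline). Not every pair was over 0.1, nor did every mouse correlate best with its own number in any comparison, so the numbers were not taken to pair the mice, although mice 3 of the ConA groups deviated alike (0.41). The replicate block called 13, 18, 0, 4 and 1 of the genes in the WT response, KO response, genotypes after ConA, genotypes after saline and interaction, and 140 against 45 of all genes between genotypes after ConA. These uncalled log2 values changed direction. With mouse 3 of both ConA groups left out, Idi1 in WT was 0.17, and between genotypes after ConA Lbr was -0.050 and Hsd17b7 0.060, the last with an interaction of 0.059. With the replicate block, Fdps was 0.014 and Dhcr7 0.0058 in KO. With rescaled libraries, Lbr was -0.044 between genotypes after ConA, Sc5d 0.011 and Stard4 0.018 after saline, and the interaction of Msmo1 -0.058, which was -0.075 with WT saline mice 2 and 3 averaged. With 1 mouse left out, the WT response ran from -0.089 to 0.28 for Cyp51, -0.45 to 0.17 for Idi1 and -0.0052 to 0.21 for Srebf2, and the KO response from -0.15 to 0.020 for Dhcr7 and -0.22 to 0.014 for Fdps. Between genotypes after ConA it ran from -0.19 to 0.053 for Cyp51, -0.24 to 0.15 for Hsd17b7, -0.14 to 0.15 for Lbr and -0.084 to 0.067 for Srebf2. After saline it ran from -0.13 to 0.20 for Fdft1, -0.18 to 0.13 for Hsd17b7, -0.028 to 0.20 for Nsdhl, -0.28 to 0.0067 for Pmvk, -0.020 to 0.32 for Srebf1 and -0.18 to 0.014 for Stard4. The interaction ran from -0.14 to 0.058 for Acat2, -0.24 to 0.15 for Hsd17b7, -0.10 to 0.39 for Msmo1 and -0.13 to 0.16 for Pmvk. Causes were not tested. Rescaling changed the split of all called genes from 22% higher and 31% lower in the WT response to 2931 higher and 3115 lower genes, and after saline, where more were lower in KO, to 836 higher and 787 lower. Unknown depth limits all low values, among them Ggps1 and Lbr.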
